A study of Mus musculus with 12 samples.

Results

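The EGF receptor family and its ligands were followed as 10 genes, 4 receptors (Egfr, Erbb2, Erbb3 and Erbb4) and 6 ligands (Tgfa, Hbegf, Areg, Ereg, Btc and Nrg1), chosen by name out of the 47642 genes listed. RNA was sequenced from mIMCD3 cells, an immortalized line from the mouse inner medullary collecting duct that carries the early region of the simian virus SV40 in every genotype, the controls included. The wild-type cells (Wt) were compared with 1 Pkd1-/- clone, in which CRISPR removed nearly the whole Pkd1 gene, and with 1 Pkd2-/- clone, in which a TALEN pair removed a run of internal Pkd2 exons. All cells were grown with fetal bovine serum, and no treatment is given for any of them. Of 6 dishes grown per genotype, 4 were sequenced 4 days after full confluency, picked for RNA purity, which gave 12 libraries in all. Each mutant is thus represented by dishes of a single clone, and clone and genotype cannot be told apart. The p-values measure only the spread between dishes.

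ErbB receptors are tyrosine kinases at the cell surface that pair when a ligand binds and pass the signal to the Ras and ERK kinases, among other routes. Tgfa, Hbegf, Areg, Ereg and Btc encode ligands that bind the EGF receptor, and Nrg1 encodes a neuregulin that binds ErbB3 and ErbB4. ErbB2 binds no ligand of its own and ErbB3 has little kinase activity, so that both act mainly as partners. In the renal tubule this family is known for its part in epithelial repair, and EGF receptor signaling has been studied in cystic epithelia.

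The libraries held an estimated 23187941 to 30326103 reads on genes. Values are normalized counts, that is, reads per gene divided by the size factor of the library and rounded. Pkd1 held 682, 688, 883 and 876 normalized counts in Wt cells, 40, 49, 48 and 30 in Pkd1-/- cells, and 1057, 1216, 1071 and 1492 in Pkd2-/- cells, with no overlap between Pkd1-/- and the other genotypes. Pkd2 held 3971 ± 451 (SD, n = 4) in Wt, 2711 ± 133 in Pkd1-/- and 3986 ± 124 in Pkd2-/- cells. A count over the whole gene includes the Pkd2 exons outside the deletion and so does not check the Pkd2-/- label. Of 12 epithelial markers of the collecting duct and tubule, 10 reached a mean of 10 normalized counts in at least 1 genotype, Aqp2, the water channel of principal cells, was at 0 in every library, and Aqp3 reached at most 6. Of the proximal tubule list, 1 of 4 genes reached that mean. That gene, Lrp2, held 508 on average in Wt, 46.3 in Pkd1-/- and 935 in Pkd2-/- cells, an order that Nrg1 and Erbb3 share. Gata3, Cdh16, Tfcp2l1, Pax2, Pax8, Krt8 and Krt18 of the epithelial list also had that order of means, and Cdh1, Epcam and Hoxb7 did not. The part of these markers in the differences of Nrg1 and Erbb3 was not tested. Of 4 endothelial markers none reached a mean of 10, and of 6 fibroblast markers 3 did, with summed levels of 15 to 99 in the Pkd2-/- libraries and 25 to 55 in Wt. Of 4 immune cell markers 2 reached it and Adgre1 was at 0 in every library, with summed levels of 893 to 1000 in Wt, 428 to 652 in Pkd1-/- and 732 to 826 in Pkd2-/- libraries. Most of that sum was Csf1r, the receptor of a macrophage growth factor, at 880.5, 479.3 and 734.0 on average, and its part in the members' differences was not tested.

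In Pkd2-/- cells, 5 of the 9 members that could be tested were higher than in Wt, where 20.0% of all genes were. These were the receptors Egfr and Erbb3 and the ligands Tgfa, Hbegf and Nrg1. The ligands moved more than the receptors, with Tgfa and Hbegf close to 1.9-fold and Nrg1 2.40-fold higher, against 1.31-fold for Egfr and 1.25-fold for Erbb3. In Pkd1-/- cells no member rose, where 13.6% of all genes did, and Erbb3 and Nrg1 fell, where 13.5% did. Erbb3 and Nrg1 thus moved in opposite directions in the 2 mutants. Erbb4 was listed at 0 in all Pkd2-/- libraries and was close to 0 elsewhere, and Ereg was at 0 throughout.

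**Figure D1:**
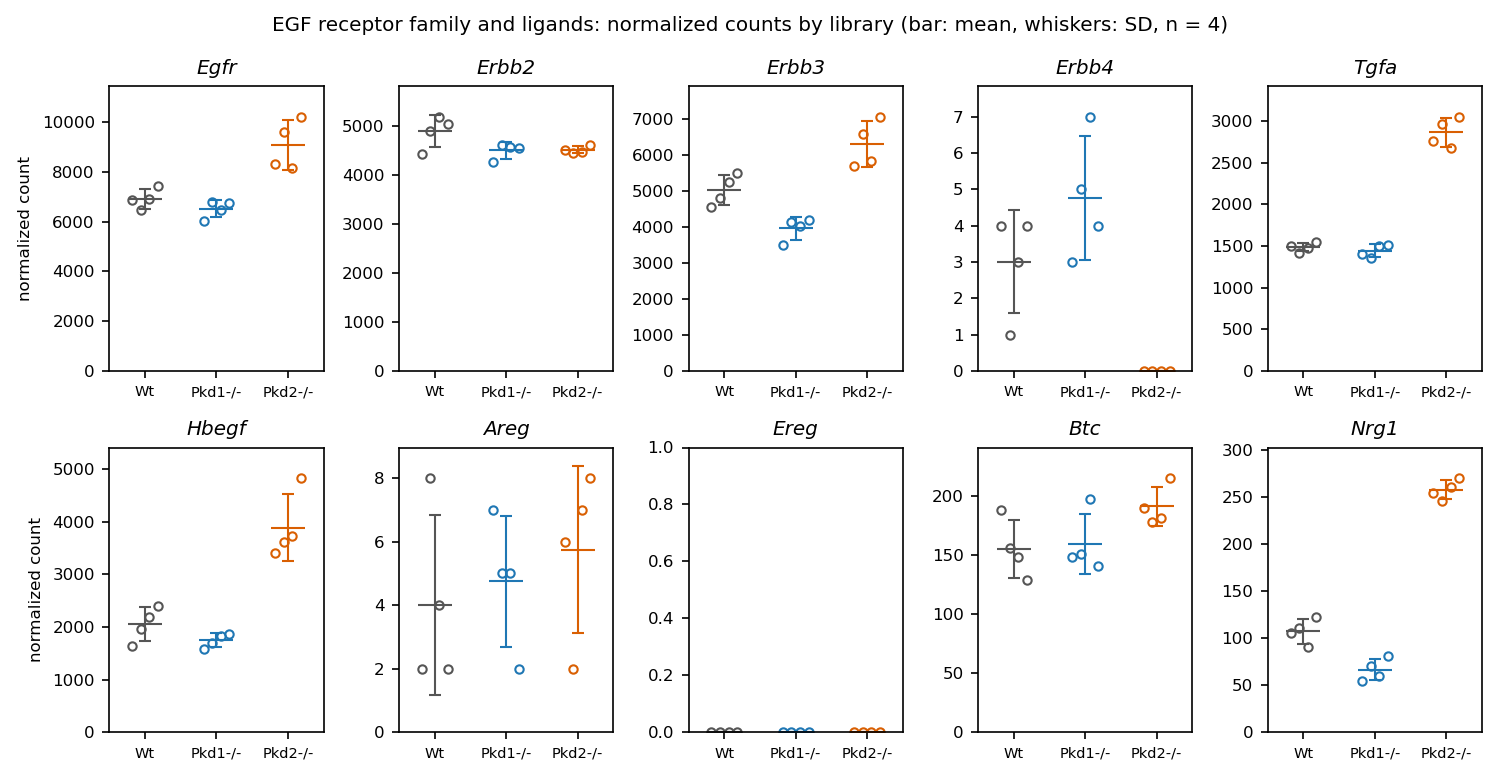
Normalized counts of the 10 members in each library (open circles, 4 per genotype), with the mean as a horizontal bar and the SD as whiskers; each panel has its own axis from 0. The Pkd2-/- libraries lie above all others for Egfr, Erbb3, Tgfa, Hbegf and Nrg1, and Ereg is at 0 in every library.

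The receptors were the first group compared. Egfr (ENSMUSG00000020122.16, GRCm38 chr11:16752203-16918158, plus strand) encodes the EGF receptor itself. It held 6864, 6456, 6900 and 7428 normalized counts in the Wt libraries, 6041, 6782, 6483 and 6754 in Pkd1-/-, and 8322, 9597, 8172 and 10220 in Pkd2-/-. Every Pkd2-/- library lay above every Wt and Pkd1-/- library, while Wt and Pkd1-/- overlapped. The log2 fold change, fitted by limma on log2(normalized count + 1), was 0.39 ± 0.07 (SE) for Pkd2-/- against Wt (limma adjusted p = 9.8e-05) and 0.47 against Pkd1-/- (limma adjusted p = 8.61e-06). For Pkd1-/- against Wt it was -0.09, with a 95% interval of -0.23 to 0.05 (limma adjusted p = 0.396). An antisense gene, Egfros, lies within Egfr, and whether reads were counted by strand is not given in the sources used here, so reads of the pair cannot be told apart. Genes on the opposite strand also overlap the spans of Erbb2, Tgfa, Ereg and Nrg1, where the same limit may apply.

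Erbb3 (ENSMUSG00000018166.8, chr10:128567523-128589652, minus strand), the partner receptor that binds neuregulins, separated all 3 genotypes. Its levels were 4562, 4791, 5253 and 5487 normalized counts in Wt, 3504, 4142, 4021 and 4191 in Pkd1-/-, and 5702, 6574, 5835 and 7066 in Pkd2-/- libraries. The Pkd1-/- libraries were all below and the Pkd2-/- libraries all above the Wt range. The log2 fold change was -0.34 ± 0.07 (SE) in Pkd1-/- (limma adjusted p = 0.00173) and 0.32 ± 0.07 in Pkd2-/- cells (limma adjusted p = 0.00155). The direct difference between the mutants was 0.66, or 1.58-fold (limma adjusted p = 5.07e-07).

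Erbb2 (ENSMUSG00000062312.5, chr11:98412470-98437716, plus strand), the receptor with no ligand of its own, passed the test in no comparison. It held 4437, 4906, 5197 and 5035 normalized counts in Wt, 4258, 4624, 4581 and 4561 in Pkd1-/-, and 4509, 4455, 4477 and 4615 in Pkd2-/- libraries. The ranges of all genotypes overlapped. The log2 fold change was -0.12 in Pkd1-/- (95% interval -0.22 to -0.01, limma adjusted p = 0.089) and -0.11 in Pkd2-/- cells (-0.22 to -0.01, limma adjusted p = 0.0725). Between the mutants it was 0.00 (-0.10 to 0.11), so a difference larger than that interval was not seen. With Wt replicate 1 left out, both differences from Wt passed, at -0.16 (limma adjusted p = 0.0118 and 0.00811), and the Pkd2-/- difference also passed with libraries scaled to equal upper quartiles, at -0.15 (limma adjusted p = 0.0237). Its end overlaps that of Mien1, which lies on the opposite strand.

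Erbb4 (ENSMUSG00000062209.15, chr1:68032186-69108059, minus strand), a neuregulin receptor with an active kinase, was near the limit of detection. Its normalized counts were 4, 1, 3 and 4 in Wt, 3, 5, 7 and 4 in Pkd1-/-, and 0 in each Pkd2-/- library. No Pkd2-/- library reached the lowest library of either other genotype. The limit that a listed 0 allows, 3 counts in a library, equals the Wt mean, so no fold is given against Wt, and against the Pkd1-/- mean of 4.75 the level was at least 1.58-fold lower. The fitted difference passed the test against Wt (limma adjusted p = 0.00185) and against Pkd1-/- cells (limma adjusted p = 0.000145), but its size depends on the added pseudocount.

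Among the ligands, Tgfa (ENSMUSG00000029999.14, chr6:86195223-86275719, plus strand), which encodes transforming growth factor alpha, had the smallest standard error relative to its change in Pkd2-/- cells. It held 1498, 1420, 1477 and 1544 normalized counts in Wt, 1401, 1355, 1503 and 1513 in Pkd1-/-, and 2754, 2968, 2677 and 3052 in Pkd2-/- libraries. The lowest Pkd2-/- library, at 2677, lay above the highest of the others, at 1544. The log2 fold change in Pkd2-/- cells was 0.95 ± 0.05 (SE) against Wt, or 1.93-fold (limma adjusted p = 7.63e-11), and 0.99 against Pkd1-/- (limma adjusted p = 2.97e-11). For Pkd1-/- against Wt it was -0.04, with a 95% interval of -0.16 to 0.07 (limma adjusted p = 0.641).

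Hbegf (ENSMUSG00000024486.5, chr18:36504927-36515805, minus strand) encodes heparin-binding EGF-like growth factor, which is shed from the cell surface. Its levels were 1647, 1960, 2198 and 2404 normalized counts in Wt, 1583, 1693, 1828 and 1877 in Pkd1-/-, and 3402, 3606, 3719 and 4828 in Pkd2-/- libraries. All Pkd2-/- libraries lay above all others, and replicate 4 was the highest library in each genotype. The log2 fold change in Pkd2-/- cells was 0.92 ± 0.11 (SE) against Wt, or 1.90-fold (limma adjusted p = 1.01e-06), and 1.15 against Pkd1-/- cells, or 2.21-fold (limma adjusted p = 4.54e-08). In Pkd1-/- cells it was -0.22 (limma adjusted p = 0.139), and -0.32 (limma adjusted p = 0.0248) with Wt replicate 1 left out. Hbegf rose from replicate 1 to replicate 4 in every genotype. With a term for the replicate number in the fit, the Pkd1-/- difference of -0.22 passed (limma adjusted p = 0.00657).

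Nrg1 (ENSMUSG00000062991.7, chr8:31814551-32884029, minus strand) was the ligand with the largest fold. It held 105, 111, 91 and 122 normalized counts in Wt, 55, 71, 60 and 81 in Pkd1-/-, and 254, 246, 261 and 270 in Pkd2-/- libraries. The genotypes did not overlap, with Pkd1-/- lowest and Pkd2-/- highest. The log2 fold change was -0.68 ± 0.13 (SE) in Pkd1-/- (limma adjusted p = 0.000618) and 1.26 ± 0.13, or 2.40-fold, in Pkd2-/- cells (limma adjusted p = 2.91e-07). Between the mutants it was 1.95, or 3.86-fold (limma adjusted p = 5.74e-10). The SD of its 4 Pkd2-/- libraries was 10.2 around a mean of 257.8 normalized counts, so the dishes differed little.

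The other ligands did not pass the test. Btc (ENSMUSG00000082361.6, chr5:91357261-91402994, minus strand), encoding betacellulin, held 155 ± 24.6 normalized counts (SD, n = 4) in Wt, 159 ± 25.5 in Pkd1-/- and 191 ± 16.8 in Pkd2-/- cells, with overlapping ranges. Its log2 fold change in Pkd2-/- cells was 0.31, with a 95% interval of 0.03 to 0.58 (limma adjusted p = 0.0671), and it passed without Wt replicate 1 (0.40, limma adjusted p = 0.02) or Pkd1-/- replicate 3 (limma adjusted p = 0.0473). Areg (ENSMUSG00000029378.5, chr5:91139599-91148432, plus strand), encoding amphiregulin, lay between 2 and 8 normalized counts in all 12 libraries, and its log2 fold change of 0.48 in Pkd2-/- cells had an interval of -0.53 to 1.48 (limma adjusted p = 0.468). A difference in Areg was thus not detectable at this depth. Ereg (ENSMUSG00000029377.5, chr5:91074622-91093646, plus strand), encoding epiregulin, was at 0 in every library, which allows up to 3 counts in each, and was not tested.

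Of the 9 members tested, 6 passed the test in Pkd2-/- against Wt cells, where 42.3% of all 18552 genes tested passed. For Pkd1-/- against Wt, 2 members passed, against 27.1% of all genes, and between the mutants 6 passed, against 46.3%. The share in Pkd1-/- cells was close to the background. More of the better expressed genes passed. With a minimum mean of 10, which removes Erbb4 and Areg, 13703 genes remained. Of these, 4854 passed in Pkd1-/- cells, 7454 in Pkd2-/- cells and 8057 between the mutants. Counted by direction, 5 members were higher in Pkd2-/- cells than in Wt, where 20.0% of all genes were, and 1, Erbb4, was lower (22.3% of all genes). In Pkd1-/- cells 0 members were higher (13.6%) and 2 were lower (13.5%). Between the mutants 5 were higher in Pkd2-/- cells (21.9%) and Erbb4 was lower (24.3%). The members without overlap between genotypes were the same in number, 2 in Pkd1-/- cells (27.1% of all genes), 6 in Pkd2-/- cells (37.2%) and 6 between the mutants (41.8%). The median log2 fold change of the members was 0.39 in Pkd2-/- and -0.09 in Pkd1-/- cells, beside -0.01 and 0.01 over all genes tested. With a log2 fold change of at least 1 also required, Nrg1 and Erbb4 were differentially expressed in Pkd2-/- cells (9.62% of all genes), none was in Pkd1-/- cells (6.24%), and Hbegf, Nrg1 and Erbb4 were between the mutants (11.8%). The 2 comparisons with Wt share the same 4 Wt libraries. The exact permutation test on single members, two-sided, gave p = 0.0286 for each comparison without overlap, the smallest value that 70 splits allow, and 0.0552 after adjustment over 27 tests, so no member passed by that test. In a bulk sample, more cells that make a transcript and more transcript per cell cannot be told apart.

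**Figure D2:**
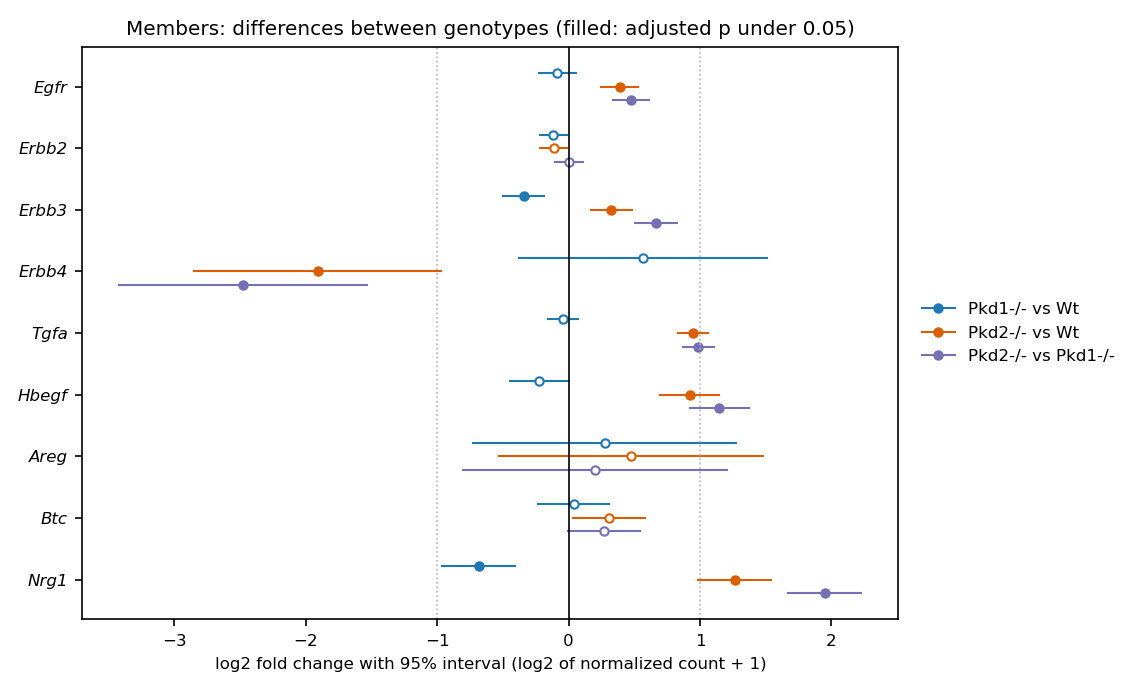
Log2 fold change of the 9 tested members in the 3 comparisons, with the 95% interval from limma as a line; filled circles passed the test and dotted lines mark a change of 1 in either direction. In Pkd2-/- against Wt cells Nrg1 lies at 1.26, Tgfa at 0.95 and Hbegf at 0.92, while Erbb3 and Nrg1 lie on opposite sides of 0 in the 2 mutants; the size for Erbb4 depends on the pseudocount.

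To compare levels between genes, counts were divided by the length of each gene's exons in kilobases. Among the member ligands, the order in Wt cells was Hbegf (425 ± 67.3 normalized counts per kilobase), Tgfa (229 ± 7.93), Btc (34.3 ± 5.44), Nrg1 (10.4 ± 1.25) and Areg (3.29 ± 2.33). No neighbors in this order overlapped. The order was the same in both mutants, but Nrg1 and Areg overlapped in Pkd1-/- cells. Among the receptors the order differed by genotype. In Wt cells Erbb2 (939 ± 62.8 per kilobase) and Erbb3 (835 ± 70.2) overlapped, and Egfr (610 ± 35.2) lay below both. In Pkd1-/- cells Erbb2 stood alone at 865 ± 32.1, and Erbb3 (659 ± 52.4) and Egfr (575 ± 30.3) overlapped. In Pkd2-/- cells Erbb3 stood alone at the top with 1046 ± 107, and Erbb2 (866 ± 13.6) and Egfr (801 ± 87.8) overlapped.

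Summed over the member ligands, the level was 701 ± 65.6 normalized counts per kilobase in Wt, 629 ± 39.5 in Pkd1-/- and 1317 ± 157 in Pkd2-/- cells. Hbegf and Tgfa made up most of it in every library. Summed over the receptors it was 2385 ± 148, 2099 ± 113 and 2714 ± 202. The share of Erbb2 among the receptors was 39.4% ± 1.32 in Wt and 32.0% ± 2.09 in Pkd2-/- cells, and the share of Erbb3 was 35.0% ± 0.79, 31.4% ± 0.86 and 38.5% ± 1.09 in Wt, Pkd1-/- and Pkd2-/- cells. These ranges did not overlap (two-sided exact permutation p = 0.0286 each, adjusted over 27 shares 0.0514, which misses 0.05). The share of Hbegf among the ligands was 60.3% ± 4.17 in Wt and 60.8% ± 2.72 in Pkd2-/- cells, and that of Tgfa 32.8% ± 2.85 and 33.7% ± 2.59, with overlapping ranges.

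**Figure D3:**
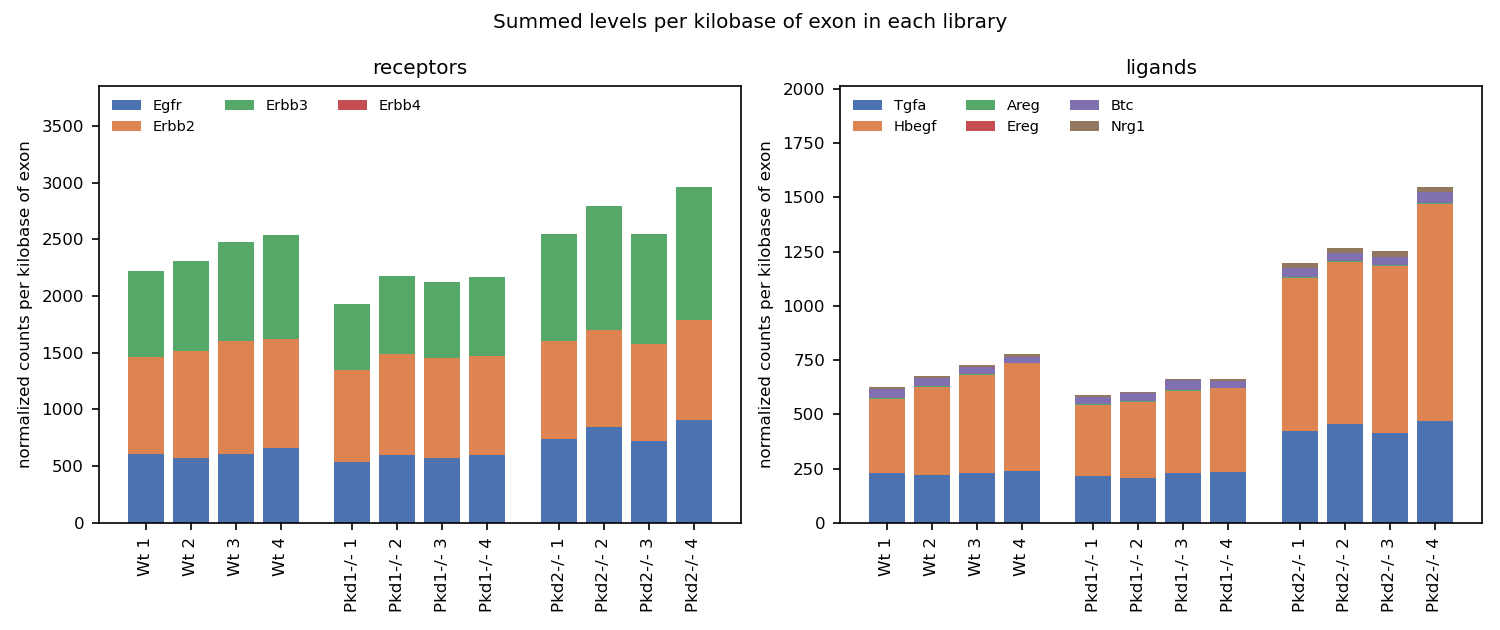
Summed normalized counts per kilobase of exon in each library, stacked by gene, for the receptors (left) and the ligands (right). The ligand sums of the Pkd2-/- libraries, 1200 to 1549, lie above the Wt sums of 625 to 777; Erbb4, Areg and Ereg are too low to be seen.

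The promoters of Egfr and Tgfa are shown because these genes rose together in Pkd2-/- cells, and that of Areg because it lies beside them in the same pathway but was nearly silent. Each is the 250 bases before the RefSeq start in GRCm38.p6, written in the direction of transcription, with GC boxes (GGGCGG, or CCGCCC on the other strand) in capitals. Entries were found for 6 of the 10 members, and Erbb3, Hbegf, Ereg and Nrg1 had none.
Egfr, chr11:16751953-16752202, plus strand: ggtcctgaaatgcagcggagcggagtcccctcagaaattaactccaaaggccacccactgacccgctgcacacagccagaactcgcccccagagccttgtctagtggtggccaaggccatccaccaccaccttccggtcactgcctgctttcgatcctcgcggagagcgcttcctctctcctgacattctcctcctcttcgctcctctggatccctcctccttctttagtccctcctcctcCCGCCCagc
Tgfa, chr6:86194972-86195221, plus strand: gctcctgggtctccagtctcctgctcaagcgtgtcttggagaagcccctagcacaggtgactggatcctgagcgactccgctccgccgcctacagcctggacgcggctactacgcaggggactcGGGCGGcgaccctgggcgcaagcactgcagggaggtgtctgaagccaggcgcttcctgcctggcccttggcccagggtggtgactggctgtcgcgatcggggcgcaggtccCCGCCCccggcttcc
Areg, chr5:91139349-91139598, plus strand: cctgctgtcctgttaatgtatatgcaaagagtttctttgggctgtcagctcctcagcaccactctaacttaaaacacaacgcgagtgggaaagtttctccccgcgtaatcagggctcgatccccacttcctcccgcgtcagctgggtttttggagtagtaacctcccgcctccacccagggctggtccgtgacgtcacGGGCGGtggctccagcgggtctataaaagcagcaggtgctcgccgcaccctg
Egfr held 1 GC box, Tgfa held 2 and Areg held 1, and Erbb2, Erbb4 and Btc held none in this window. Of 32851 promoters of the same length, 32.7% held a GC box. Areg also held the cAMP response element TGACGTCA (1.5% of all promoters), beside its GC box, and a TATA box (TATAAA, 12.4%). The AP-1 site TGANTCA (6.7% of all promoters) was in none of the 6, and both strands were searched. The GC content was 60.8% for Egfr, 69.2% for Tgfa and 57.2% for Areg, beside a median of 52.4% over all promoters. A match is a description of the letters and no evidence of binding.

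Areg, Ereg, Btc and the related ligand gene Epgn lie within 375.5 kb on chromosome 5, and Pkd2 lies 13.3 Mb from Areg on the same chromosome. The genes around this cluster were lower in Pkd1-/- cells: 49 genes within 5 Mb of Areg averaged 10 normalized counts or more, and their median log2 fold change was -0.37. Of these, 42 lay below 0, and 28 passed the test as lower against 1 as higher (13.5% and 13.6% of all genes). In Pkd2-/- cells the median over the same genes was -0.06, with 10 lower and 12 higher (22.3% and 20.0% of all genes), which is close to the background. Areg and Btc, at 0.27 and 0.04 in Pkd1-/- cells, were above that median, and neither passed. The genes within 5 Mb of Nrg1 had medians of -0.10 in Pkd1-/- and 0.02 in Pkd2-/- cells, beside -0.68 and 1.26 for Nrg1 itself. The 13 genes within 1 Mb of Nrg1 had medians of -0.198 and 0.061, in the directions of Nrg1 but smaller. For Egfr, Erbb2, Erbb3, Erbb4, Tgfa and Hbegf the medians of the neighbors within 5 Mb lay between -0.105 and 0.057 against Wt. Within 1 Mb those of all but Erbb4 lay between -0.117 and 0.078. Erbb4 had only 2 neighbors within 1 Mb, with medians of -0.368 in Pkd1-/- and -0.523 in Pkd2-/- cells.

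**Figure D4:**
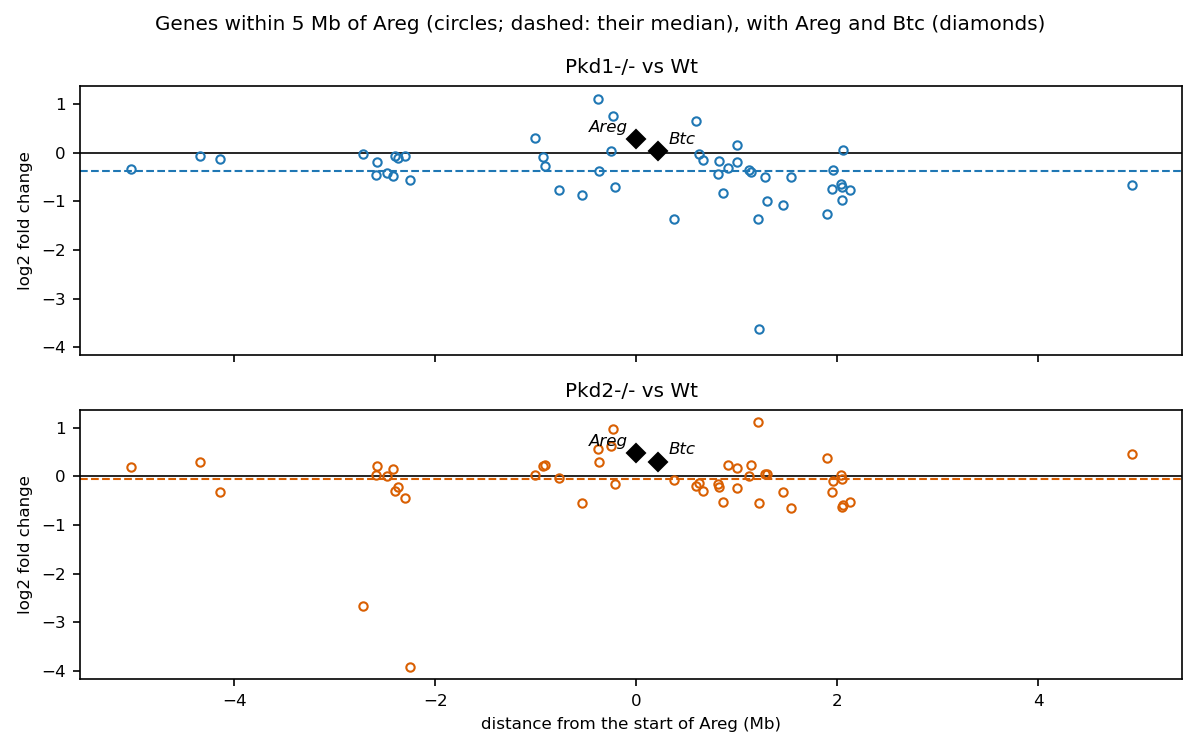
Log2 fold change against Wt of genes within 5 Mb of Areg (circles) by distance from its start, in Pkd1-/- (top) and Pkd2-/- cells (bottom), with their median as a dashed line and Areg and Btc as diamonds. The Pkd1-/- median is -0.37 and the Pkd2-/- median -0.06.

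Of 5 other EGF family ligands, 4 were tested and Nrg3 was at 0 in every library. Nrg2, a neuregulin that binds ErbB3 and ErbB4, held 96, 95, 94 and 86 normalized counts in Wt, 111, 184, 150 and 137 in Pkd1-/-, and 86, 63, 84 and 109 in Pkd2-/- libraries. It was the 1 gene of this list that rose in Pkd1-/- cells (log2 fold change 0.62 ± 0.17 (SE), limma adjusted p = 0.00844), where Nrg1 fell. Per kilobase of exon, Nrg2 averaged 29.5 in Wt, 46.4 in Pkd1-/- and 27.2 in Pkd2-/- cells. The Nrg1 means were lower, at 10.4, 6.45 and 24.9, with overlapping ranges in Pkd2-/- cells. No gene of this list passed in Pkd2-/- cells. Nrg4 lay between 2 and 15 normalized counts and did not pass (limma adjusted p = 0.594 and 0.622). Egf itself averaged 19.0, 17.0 and 21.8 normalized counts in Wt, Pkd1-/- and Pkd2-/- cells.

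Membrane-bound ligands are released by ADAM proteases, whose sorting depends on the iRhom proteins. Of 10 genes for ligand shedding and trafficking, 4 passed in each mutant, 2 in each direction, beside 27.1% of all genes in Pkd1-/- and 42.3% in Pkd2-/- cells, and the share in Pkd2-/- cells was close to that background. Timp3, an inhibitor of ADAM17, held 21, 18, 22 and 21 normalized counts in Wt, 0, 4, 0 and 0 in Pkd1-/-, and 16, 18, 5 and 6 in Pkd2-/- libraries. The Pkd1-/- libraries lay far below Wt (limma adjusted p = 1.29e-05), and the Pkd2-/- difference did not pass (limma adjusted p = 0.137), though it did with a pseudocount of 5 (log2 fold change -0.75, limma adjusted p = 0.0364). Adam17, the main sheddase of Tgfa and Hbegf and named here after its values were seen, fell in Pkd2-/- cells from 3589 ± 197 to 3046 ± 153 normalized counts, a log2 fold change of -0.24 (limma adjusted p = 0.0014).

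Of 14 genes for receptor inhibition and degradation, 6 rose and 2 fell in Pkd2-/- cells, where 20.0% of all genes rose and 22.3% fell. In Pkd1-/- cells 2 rose and 3 fell, where 13.6% and 13.5% of all genes did. Cblb, a ubiquitin ligase that acts on activated receptors, held 1712, 1473, 1592 and 1804 normalized counts in Wt, 714, 690, 677 and 745 in Pkd1-/-, and 645, 751, 693 and 958 in Pkd2-/- libraries. Both mutants lay below every Wt library, with log2 fold changes of -1.22 ± 0.09 (limma adjusted p = 1.14e-08) and -1.12 ± 0.09 (SE, limma adjusted p = 1.57e-08). Between the mutants the log2 fold change was 0.09 (95% interval -0.11 to 0.29, limma adjusted p = 0.463). Errfi1, an inhibitor of EGF receptor kinase activity that ERK signaling induces, named after its values were seen, rose in Pkd2-/- cells to 6447 ± 1959 from 3970 ± 504 in Wt (log2 fold change 0.66, limma adjusted p = 0.000418), with the widest spread of its list in Pkd2-/- cells.

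Of 12 receptor adaptors, 4 rose and 4 fell in Pkd2-/- cells (20.0% and 22.3% of all genes), and 2 rose and 4 fell in Pkd1-/- cells (13.6% and 13.5%). Vav2, which binds the activated EGF receptor, held 1758, 1668, 1655 and 1827 normalized counts in Wt, 1402, 1574, 1611 and 1645 in Pkd1-/-, and 3484, 3319, 3558 and 3482 in Pkd2-/- libraries. The Pkd2-/- libraries stood apart at 2.00-fold the Wt level (log2 fold change 1.00 ± 0.05 (SE), limma adjusted p = 2.98e-11). The Pkd1-/- difference of -0.15 was at the threshold (limma adjusted p = 0.0494) and was lost under most alternatives. Gab1, a docking protein named after its values were seen, fell by 0.53 and 0.52 on the log2 scale in Pkd1-/- and Pkd2-/- cells (limma adjusted p = 2.22e-07 and 1.28e-07).

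Of 15 genes of the Ras-ERK cascade, 4 rose and 4 fell in Pkd2-/- cells (20.0% and 22.3% of all genes) and 1 rose and 1 fell in Pkd1-/- cells (13.6% and 13.5%), with median log2 fold changes of 0.00 and 0.01. Ksr1, a scaffold for RAF, MEK and ERK, held 74, 47, 47 and 51 normalized counts in Wt, 67, 89, 50 and 59 in Pkd1-/-, and 176, 183, 175 and 197 in Pkd2-/- libraries. All Pkd2-/- libraries were above all others, at 3.35-fold the Wt level (log2 fold change 1.75 ± 0.18 (SE), limma adjusted p = 1.96e-07). Mapk3, which encodes ERK1 and was named after its values were seen, fell in Pkd2-/- cells from 4454 ± 238 to 2928 ± 80.8 normalized counts (log2 fold change -0.60, limma adjusted p = 3.6e-09).

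The list of ERK feedback and target genes, which are transcribed when ERK is active or restrain it, moved mostly upward in Pkd2-/- cells. In Pkd2-/- cells 12 of its 16 genes rose, where 20.0% of all genes did, and 1, Epha4, fell. In Pkd1-/- cells 7 rose, where 13.6% of all genes did, Epha4 fell, and 8 did not pass. The median log2 fold change was 0.78 in Pkd2-/- and 0.34 in Pkd1-/- cells. Between the mutants, 10 were higher in Pkd2-/- cells, where 21.9% of all genes were, and Phlda1 and Etv4 were lower. The count of 12 was the same without Pkd2-/- replicate 4, the highest library for several of these genes. Because the list was chosen with earlier results of these data known, the shares beside its counts are a description and no test.

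Dusp5, a phosphatase of nuclear ERK, held 202, 276, 409 and 606 normalized counts in Wt, 417, 556, 690 and 852 in Pkd1-/-, and 1139, 1408, 1470 and 3744 in Pkd2-/- libraries. The Pkd2-/- libraries lay above all others (log2 fold change 2.33 ± 0.33 (SE), limma adjusted p = 1.12e-05), and Wt and Pkd1-/- overlapped (log2 fold change 0.82, limma adjusted p = 0.072). That difference passed when only the genotypes compared were fitted (limma adjusted p = 0.0234) and without Wt replicate 4, Pkd1-/- replicate 1 or Pkd2-/- replicate 4 (limma adjusted p = 0.0161, 0.0423 and 0.0159). Dusp5 rose from replicate 1 to replicate 4 in every genotype, and the Pkd1-/- difference passed with a term for the replicate number (limma adjusted p = 2.38e-05). Fosl1, a component of the AP-1 factor, held 108, 105, 119 and 118 in Wt, 176, 196, 195 and 228 in Pkd1-/-, and 287, 301, 252 and 349 in Pkd2-/- libraries, with no overlap between genotypes. Its log2 fold change was 0.81 ± 0.11 in Pkd1-/- (limma adjusted p = 1.77e-05) and 1.39 ± 0.11 (SE) in Pkd2-/- cells (limma adjusted p = 8.44e-09).

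Etv5, an ETS factor downstream of receptor tyrosine kinases, held 26, 27, 35 and 26 normalized counts in Wt, 71, 62, 77 and 114 in Pkd1-/-, and 52, 64, 62 and 59 in Pkd2-/- libraries. It rose in Pkd1-/- (log2 fold change 1.45 ± 0.19 (SE), limma adjusted p = 1.14e-05) and in Pkd2-/- cells (1.04 ± 0.19, limma adjusted p = 0.000217). Its relative Etv4 held 6, 2, 6 and 7 in Wt, 19, 23, 12 and 23 in Pkd1-/-, and 6, 1, 9 and 11 in Pkd2-/- libraries. Etv4 rose in Pkd1-/- cells (log2 fold change 1.75 ± 0.49 (SE), limma adjusted p = 0.0116), was at 0.13 in Pkd2-/- cells (limma adjusted p = 0.867), and was lower in Pkd2-/- than in Pkd1-/- cells by a tested -1.62 (limma adjusted p = 0.0107).

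**Figure D5:**
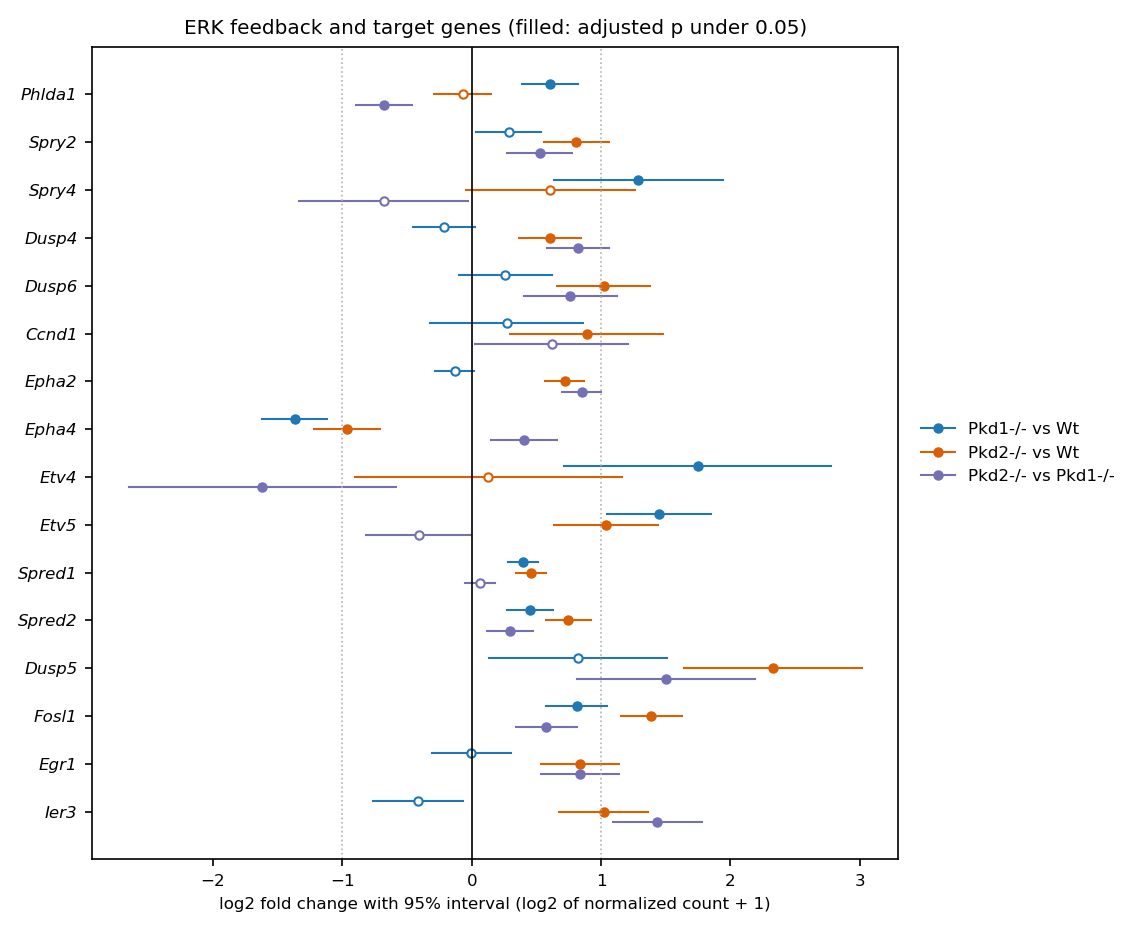
Log2 fold change of the 16 ERK feedback and target genes in the 3 comparisons, with 95% intervals from limma; filled circles passed the test. Most Pkd2-/- against Wt points lie to the right of 0, up to 2.33 for Dusp5; Epha4 lies to the left in both mutants, and Etv4 rose in Pkd1-/- cells only among the 2 comparisons with Wt.

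Replicate 4 of Pkd2-/- was the highest of all libraries for Egr1 (54669 normalized counts, against 29888 to 36059 in the other Pkd2-/- libraries and 16584 to 25004 in Wt), Dusp5, Errfi1 and Hbegf. Egr1 is an immediate-early gene. Replicate 4 was also the highest Wt library for all of these genes, and the highest Pkd1-/- library for Dusp5, Errfi1 and Hbegf but not for Egr1. Without Pkd2-/- replicate 4 the log2 fold change of Hbegf in Pkd2-/- against Wt cells was 0.81 (limma adjusted p = 8.6e-07), beside 0.92 with it. That of Dusp5 was 1.95 (limma adjusted p = 7.25e-06), beside 2.33.

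The genes whose 12 values on the log2 scale, centred on the Wt mean, lay closest to those of Erbb4, the member with the largest range of genotype means at the pseudocount of 1 used here, were Cd1d1, Tmem229b and Myb (Euclidean distances 1.18, 1.27 and 1.29 among 13703 genes). Their mean normalized counts in Wt, Pkd1-/- and Pkd2-/- cells were 15.5, 26.5 and 3.25 for Cd1d1, 55.8, 78.5 and 14.3 for Tmem229b, and 92.0, 123.8 and 28.3 for Myb, each lowest in Pkd2-/- cells. For Nrg1, measured after its values were seen, the closest were Ccnjl, Aif1l and Cutal (distances 0.54, 0.58 and 0.59). Ccnjl averaged 200.0, 128.8 and 491.5 normalized counts, an order of genotypes that Nrg1 has too. With a pseudocount of 5, Nrg1 and not Erbb4 had the largest range.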

How the data were processed

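RNA from 12 libraries of mIMCD3 cells, 4 per genotype, was sequenced by the authors, trimmed with Trim Galore, aligned to GRCm38 with HISAT2 and counted per Ensembl gene with htseq-count. The deposited score values are counts that the authors divided by DESeq2 size factors and rounded, so count models were not used, as planned only for read counts. Depth was estimated here from the whole numbers that each library skips or doubles after rounding, which gave 23187941 to 30326103 reads per library. Of 12 sample columns, 0 were left unused. The limit allowed by a listed 0 is 3 counts in a library, which covers counting error only.

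Symbols, positions and exon lengths came from GENCODE M21, and promoters from RefSeq GRCm38.p6. Differences were tested with limma 3.58.1 (R 4.3.3, lmFit and eBayes with trend) on log2(normalized count + 1) over the 18552 genes averaging 1 normalized count or more, with all libraries in 1 model, two-sided, and adjusted by Benjamini-Hochberg over all genes of a comparison. A gene passed at an adjusted p under 0.05, and was differentially expressed if its log2 fold change was also at least 1 in size. The test was tested on simulated data for Pkd1-/- against Wt. It called 99% of 200 changed genes (log2 change 1.5) and 2 unchanged ones among 17857. How often smaller changes are called, such as those of Egfr, Erbb3, Tgfa and Hbegf, was not tested.

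The members and lists were chosen with earlier results of these data known. Their counts beside the shares over all genes are therefore descriptions and not tests. All 10 members are named. Of each pathway list up to 4 genes are named, those differentially expressed in either mutant against Wt without overlap, by size, or otherwise the 2 with the lowest adjusted p; genes named beside these were chosen after their values were seen. Python 3.11.15, numpy 2.4.6, pandas 2.3.3 and matplotlib 3.10.9 were used for the rest. The alternatives were another pseudocount, filter, scaling or transcript length, no trend, no fold threshold, a replicate block, only the genotypes compared, and leaving out each library.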

Additional observations from a re-analysis of the deposited data

Results flagged for a closer look

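Of 84 groups of 4 libraries in 28 genes, 5 held a library far from the other 3, and chance alone flags about 1 group in 20. Dusp5 was at 3744 normalized counts in Pkd2-/- replicate 4, against 1139 to 1470 in the other Pkd2-/- libraries. Ksr1 was at 74 in Wt replicate 1, against 47 to 51. Etv5 was at 35 in Wt replicate 3, against 26 to 27, and Egf was at 31 in the same library, against 14 to 16. Timp3 was at 4 in Pkd1-/- replicate 2, against 0 in the others.

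For a pair of members the effect differed between the mutants, with every library of one mutant below and every library of the other above the Wt range. Erbb3 was at a log2 fold change of -0.34 in Pkd1-/- and 0.32 in Pkd2-/- cells, and the tested difference between the mutants was 0.66 (limma adjusted p = 5.07e-07). Nrg1 was at -0.68 and 1.26, with a difference of 1.95 (limma adjusted p = 5.74e-10).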

How the results depend on the processing

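The alternatives named in the methods were run for the fold changes of the members and the other named genes of the pathway lists, the counts that passed, the shares and the medians of neighbors, and not for list medians, markers, shares of genes without overlap or the distances between genes. Every member that passed the test kept its direction and its side of the threshold under each alternative that could give it a value; a minimum mean of 10 removes Erbb4 and Areg. With no fold threshold, 2 members counted as differentially expressed in Pkd1-/- cells, 6 in Pkd2-/- cells and 6 between the mutants. With a pseudocount of 5 or a minimum mean of 10, 1 member, Nrg1, did in Pkd2-/- cells. Over 13703 genes, the replicate numbers paired the libraries weakly at most. In 12 same-numbered pairs r was -0.073 to 0.2, 2 of them over 0.1, and 9 of 24 best matches were to the own number. Some genes did follow the number: Hbegf, Dusp5, Dusp6 and Ier3 rose from replicate 1 to replicate 4 in every genotype. The main fit has no term for the replicate number. With a replicate block, 3, 7 and 6 members passed in the comparisons in the order above, and 10 ERK feedback and target genes rose in Pkd1-/- cells in place of 7. Named genes gained by the block were Hbegf and Dusp5 in Pkd1-/- cells (limma adjusted p = 0.00657 and 2.38e-05) and Erbb2 in Pkd2-/- cells (limma adjusted p = 0.0494). The genes of the ERK list that fell in Pkd1-/- cells were 2, in place of 1, with the block or with only the genotypes compared, and 1 gene for shedding fell, in place of 2, with equal upper quartiles or no trend.

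With 1 library left out, 2 to 4 members passed in Pkd1-/- cells (4 without Wt replicate 1), 6 to 8 in Pkd2-/- cells and 6 to 7 between the mutants. The genes that fell in Pkd1-/- cells were 1 to 2 for shedding and 1 to 3 of the ERK list, and 1 to 3 adaptors were lower in Pkd2-/- than in Pkd1-/- cells. Differences that did not pass changed sign with equal upper quartiles for Mapk3 and Egr1 in Pkd1-/- cells (0.0023 and 0.0097), Pkd2 in Pkd2-/- cells (-0.0188), and Erbb2 and Gab1 between the mutants (-0.0399 and -0.0352). With 1 library left out, others lay on both sides of 0: in Pkd1-/- cells Btc (-0.069 to 0.133), Nrg4 (-0.0258 to 0.779), Egf (-0.2462 to 0.1345), Mapk3 (-0.0372 to 0.0241) and Egr1 (-0.121 to 0.0765), in Pkd2-/- cells Nrg4 (-0.769 to 0.0365), Egf (-0.028 to 0.4284), Etv4 (-0.193 to 0.688) and Pkd2 (-0.055 to 0.0709), and between the mutants Erbb2 (-0.0238 to 0.0159), Areg (-0.0827 to 0.554), Gab1 (-0.0254 to 0.036) and Cblb (-0.0227 to 0.167).

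With the longest transcript as length, the Nrg1 share of the ligands was 1.05 percentage points higher in Pkd2-/- than in Pkd1-/- cells (0.88 with all exons). With a minimum mean of 1, medians of neighbors within 5 Mb became -0.344 for Areg (-0.272 within 1 Mb), -0.166 for Nrg1 and -0.087 for Hbegf in Pkd1-/- cells, 0.004 for Egfr, -0.009 for Erbb2 and -0.036 for Erbb4 in Pkd2-/- cells, and 0.000 for Egfr, -0.089 for Erbb4 and 0.032 for Hbegf between the mutants. The cause was not tested. Depth limits Areg, Ereg and Erbb4, which hold at most 8 normalized counts in a library.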
